A study of Homo sapiens with 6 samples.

Results

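The proteins of the large ribosomal subunit are encoded by the RPL genes. In total 46 of these genes were chosen by symbol, and each had 1 RefSeq transcript in all 6 libraries, out of 15739 RefSeq transcripts in the files. The list holds the stalk proteins RPLP0, RPLP1, RPLP2 and RPL12, the expressed copies RPL36A and RPL36AL, and the proteins around the catalytic centre, the exit tunnel and the face toward the small subunit. In RT-stop profiling, poly(A)-selected RNA is cut into short fragments and copied, and each position where reverse transcriptase (RT) ends its copy is counted as a stop. All libraries were made from U2OS, a human osteosarcoma cell line, with 1 library per condition. A pair of libraries received no dimethyl sulfate (DMS), and by their labels RT ran in 150 mM K+ for one and 150 mM Na+ for the other, where the study's methods name Li+ in place of Na+. The in vitro libraries were refolded and treated with DMS in 150 mM K+ or 150 mM Li+. For the in-cell libraries, DMS was given at 8% for 5 min to unstressed cells and to cells after 2 h of starvation. By their labels, all DMS libraries were reverse transcribed in 150 mM K+. With no replicate, no test was made between conditions, and every interval describes counting error alone.

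Ribosomal protein mRNAs are short, abundant and translated at high rates in growing cells. Most of them start with a 5′ terminal oligopyrimidine tract (TOP), a C followed by a run of C and U, through which mTOR signalling controls their translation. Starvation lowers mTOR activity and moves TOP mRNAs out of polysomes. DMS methylates the base-pairing face of unpaired A and C and halts RT there, and it also methylates N7 of G, which is hidden in a folded RNA G-quadruplex. In RNA without DMS, RT halts at the 3′ end of a G-quadruplex when K+ is present to fold it.

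The listed RT stops summed to between 12999691 in unstressed cells and 35371061 in the library labelled K+ without DMS. The labels of the libraries without DMS contradict the names of their files, and the labels were followed unless the opposite assignment is named. The mesenchymal markers VIM, FN1, CD44, S100A6, LGALS1, SPARC and RUNX2 had stops in all 6 libraries, with between 86796 and 208311 stops in sum. The markers of other cell types EPCAM, CDH1, PTPRC, HBB and ALB had between 60 and 384 stops in sum, and ALB had none. Only nucleotides with at least 3 stops were listed, and only reads at unique positions were kept, so reads shared with pseudogenes or near-identical copies were not counted and genes with such copies are uncertain. Of the 46 RPL transcripts, 35 had at least 60% of their nucleotides listed in some library, and the other 11 had between 7.06% (RPL36A) and 46.9% (RPL28).

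RPL mRNAs took a larger share of RT stops in starved than in unstressed cells. Their 46 transcripts held 5.99% of all listed stops without DMS in the library labelled K+ and 5.98% in that labelled Na+. They held 6.16% in vitro in K+ and 5.85% in Li+. Unstressed cells had a share of 8.19% (95% Wilson interval 8.172 to 8.202%, 1064237 stops) and starved cells one of 12.6% (12.59 to 12.61%, 3025576 stops). Both in-cell libraries lay above the 4 other libraries, and the starved library was the highest. The share in starved cells was 1.54 times that in unstressed cells (exact conditional interval 1.536 to 1.542), and 1.62 times without RPLP1, which held 10.9% of the RPL stops in unstressed cells. The proteins of the small subunit (RPS genes) differed by 1.59 times, other TOP mRNAs such as EEF1A1 by 1.38 times and mitochondrial large-subunit proteins (MRPL genes) by 1.33 times. A share of stops depends on RNA abundance, on DMS modification and on how much of the transcript can be mapped, and these cannot be told apart in these libraries, nor can RNA per cell and the number of cells.

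Among the individual genes, 30 of 46 had a share of stops at least 1.5-fold higher in starved than unstressed cells, against 32.9% of 7351 transcripts with at least 200 stops over both libraries. Another 4 were at least 1.5-fold lower, against 42.5% of these transcripts, and 12 lay between. Only 1 was lower when the listing minimum was scaled to the depth of each library, and 16 were higher with a limit of 2-fold. Relative to transcripts of the same GC content and length, as described further on, 11 were higher and 2 lower. The background by that measure was 26.6% and 24.6% of transcripts. All 46 RPL genes passed the minimum of 200 stops. The median log2 ratio was 0.82 over the RPL genes and -0.18 over all transcripts. The counting interval lay above 1 for 35 genes and below 1 for 9, against 42.5% and 50.4% of all transcripts, and it included 1 for RPL3 and RPL13A. The medians were 0.67 over 33 RPS genes, 0.43 over 48 MRPL genes and 0.40 over 16 other TOP mRNAs. Of the RPS genes 20 were higher and 1 lower, of the MRPL genes 18 and 15, and of the other TOP mRNAs 5 and 2.

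RPL17, a protein at the mouth of the exit tunnel, had the largest ratio. It took 12501 and 11304 stops without DMS, 5435 in vitro with K+, 7742 with Li+, 2783 in the unstressed library and 22528 in the starved one. This was 214 stops per 1000000 of the library in unstressed and 938 in starved cells, a ratio of 4.38 (4.21 to 4.56). RPL17 was one of 3 RPL genes with a smaller share in unstressed cells than in vitro in K+, along with RPL4 and RPL26. RPL26, which also lies by the exit tunnel, followed with a ratio of 2.93 (2.88 to 2.98), then RPL21 (2.89), RPL31 (2.71) and RPL37 (2.54). RPL17, RPL21, RPL31 and RPL37 had fewer than 60% of their nucleotides listed, so their counts came from part of the transcript.

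At the other end, RPL28 took 871 stops per 1000000 in unstressed and 438 in starved cells, a ratio of 0.503 (0.490 to 0.517). RPLP2, a stalk protein, had a ratio of 0.644 (0.633 to 0.655), RPL8, which reaches toward the catalytic centre, 0.655 (0.646 to 0.663) and RPL13 0.664 (0.651 to 0.677). RPL7A, with a ratio of 0.708 (0.699 to 0.718), was outside the 1.5-fold limit. RPL28 and RPL13 again had fewer than 60% of their nucleotides listed, whereas RPLP2, RPL8 and RPL7A had at least 89.9%.

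**Figure D1:**
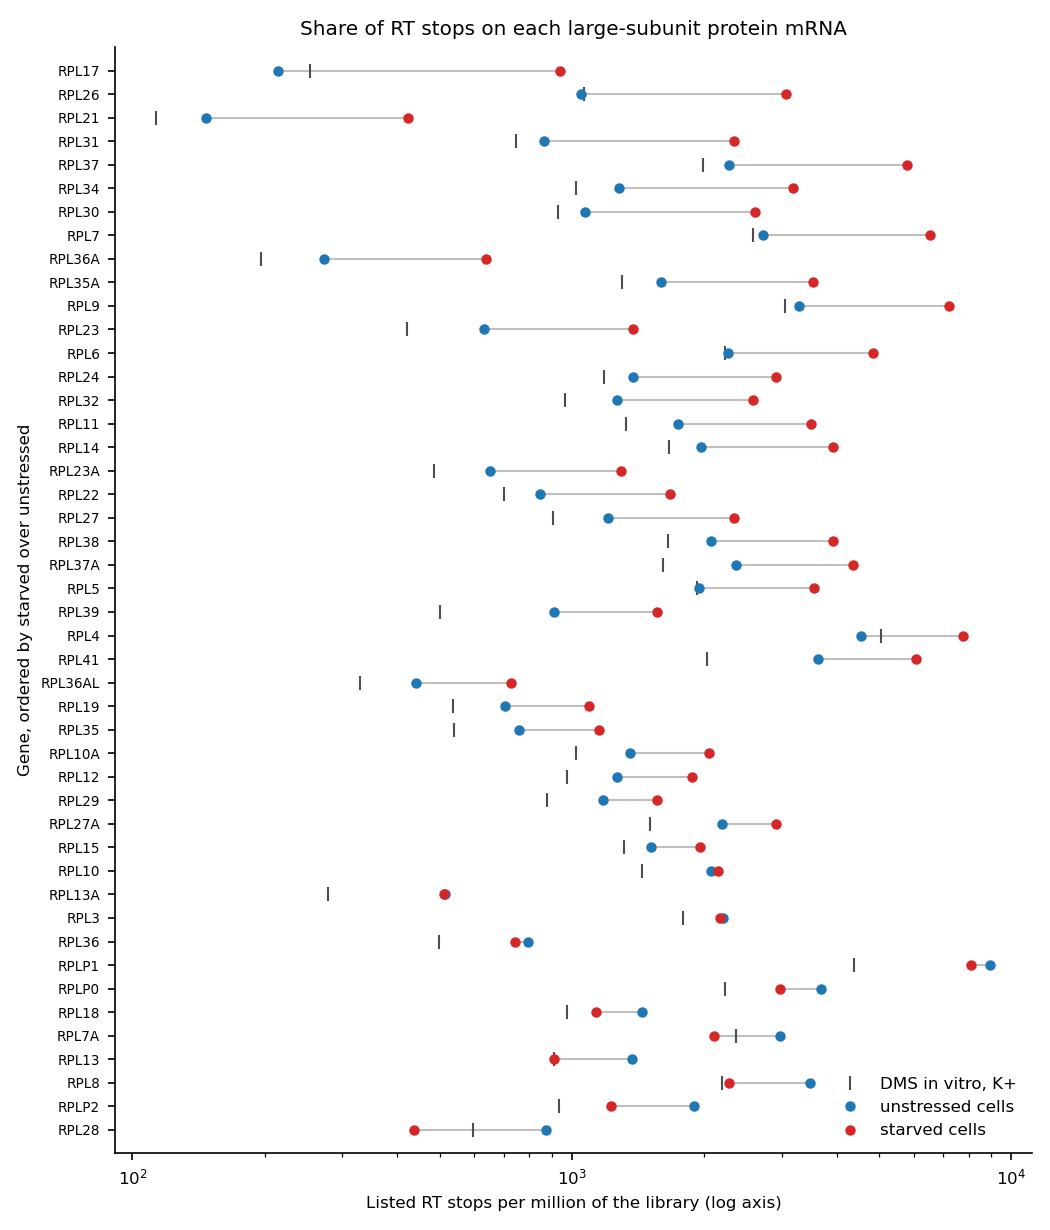
Listed RT stops per 1000000 of the library (log axis) on each of the 46 RPL mRNAs, in unstressed cells (blue), starved cells (red) and in vitro in K+ (tick), with 1 library per condition. Genes are ordered by the ratio of starved to unstressed, from RPL17 (4.38) at the top to RPL28 (0.503) at the bottom, and red lies to the right of blue for 35 genes with a counting interval above 1.

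The stalk recruits translation factors to the ribosome. RPLP0, its base, had a ratio of 0.809, RPLP1 0.903, RPLP2 0.644 and RPL12, which anchors the stalk on the ribosome, 1.48, so none of the 4 was at least 1.5-fold higher. The direction of the group turned relative to transcripts of the same GC content and length, with a median log2 ratio of -0.23 before and 0.33 after, and again 0 of 4 at least 1.5-fold higher. RPLP1 held the most RPL stops in both in-cell libraries, with 116372 in unstressed and 194068 in starved cells. RPL4, a protein that lines the exit tunnel, held the most in the 4 other libraries and had a ratio of 1.71. RPL21 held the fewest in all 6, between 1908 and 10176.

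Other roles differed in the number of genes at least 1.5-fold higher, a limit passed by 32.9% of all transcripts. RPL5 and RPL11 form a particle with 5S rRNA that also binds MDM2, and both were higher, at 1.83 and 2.02. The exit tunnel group was higher for 8 of 8 genes, with RPL39, a very small protein inside the tunnel, at 1.71. The intersubunit group was higher for 4 of 4 genes, with RPL41, the shortest ribosomal protein, at 1.67. In the group around the catalytic centre and the path of tRNA, 3 of 8 were higher and 1 (RPL8) was lower. RPL3 stood at 0.987 and RPL10, which is loaded late in assembly, at 1.04. The copies RPL36A and RPL36AL stood at 2.34 and 1.64, but RPL36A rested on 62 listed nucleotides, 7.06% of its transcript, against 84.6% for RPL36AL. RPL13A, known for a role outside the ribosome in translational control, stood at 0.993 and RPL22 at 1.97. Relative to transcripts of the same GC content and length, a comparison described further on, the genes at least 1.5-fold higher numbered 2 of 8 for the exit tunnel, 0 of 4 for the intersubunit group, 3 of 8 around the catalytic centre and 1 of 2 for the 5S particle, against 26.6% of transcripts. None of these groups then had a gene at least 1.5-fold lower, and RPL8 turned from a log2 ratio of -0.61 to 0.58. By that measure the median log2 ratio was 0.53 around the catalytic centre, 0.41 for the exit tunnel and 0.29 for the intersubunit group, so the order of the groups was not kept. These groups are small and were chosen with earlier results known, and no difference between them was tested.

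The ratio moved with the GC content of the transcript. Across the 46 RPL genes, Pearson's r between log2 ratio and GC content was -0.75 and Spearman's rho -0.77, and across 6947 transcripts they were -0.78 and -0.80. These are correlations across genes of the same pair of libraries, and genes are not independent replicates. The 5 genes with the largest ratio had a GC content between 41.5% (RPL37) and 49.7% (RPL17), while the 5 with the smallest lay between 51.9% (RPL7A) and 60.5% (RPL8). The stalk genes lay between 52.4% and 57.4%. RPL transcripts are also short, with a median of 744 nt against 2844 nt over all transcripts.

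Other short transcripts of like GC content lay nearer to the RPL genes than all transcripts did, though not equally in each class. Among transcripts of up to 1000 nt with 40 to 45% GC, the median log2 ratio was 1.27 over 8 RPL genes and 1.23 over 94 others. With 45 to 50% GC it was 1.00 over 12 RPL genes and 0.75 over 121 others, and with 50 to 55% it was 0.57 over 7 and 0.29 over 111. With 55 to 60% GC it was -0.15 over 5 RPL genes and -0.54 over 104 others, and with 60 to 65% it was -0.36 over 2 and -1.19 over 63, the widest gap of these classes. Relative to all other transcripts of the same 5-point GC class and length class, the median log2 ratio of the 46 genes was 0.33, with 36 above 0, against 50.1% of transcripts. By that measure 11 of the 46 genes were at least 1.5-fold higher and 2 lower, against 26.6% and 24.6% of 6920 transcripts. Over all 46 genes, the number higher was thus near the background and the number lower was below it. On the 35 genes at least 60% listed, 6 were higher and 1 lower, and on the 34 of up to 1000 nt, 5 and 2. In both of these sets the share higher was under 26.6%. RPL13 (1.87), RPL17 (1.38) and RPL35 (1.15) stood farthest above their class, and RPL28 (-1.29) and RPL7A (-0.79) farthest below it. Of these, RPL13, RPL17 and RPL28 had fewer than 60% of their nucleotides listed. RPL13 fell in the class over 2000 nt by its matched length of 2385 nt, while 1119 nucleotides were listed. Its log2 ratio before this comparison, -0.59, lay near the -0.54 of other short transcripts with 55 to 60% GC. The comparison by GC and length class was chosen after seeing the data.

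**Figure D2:**
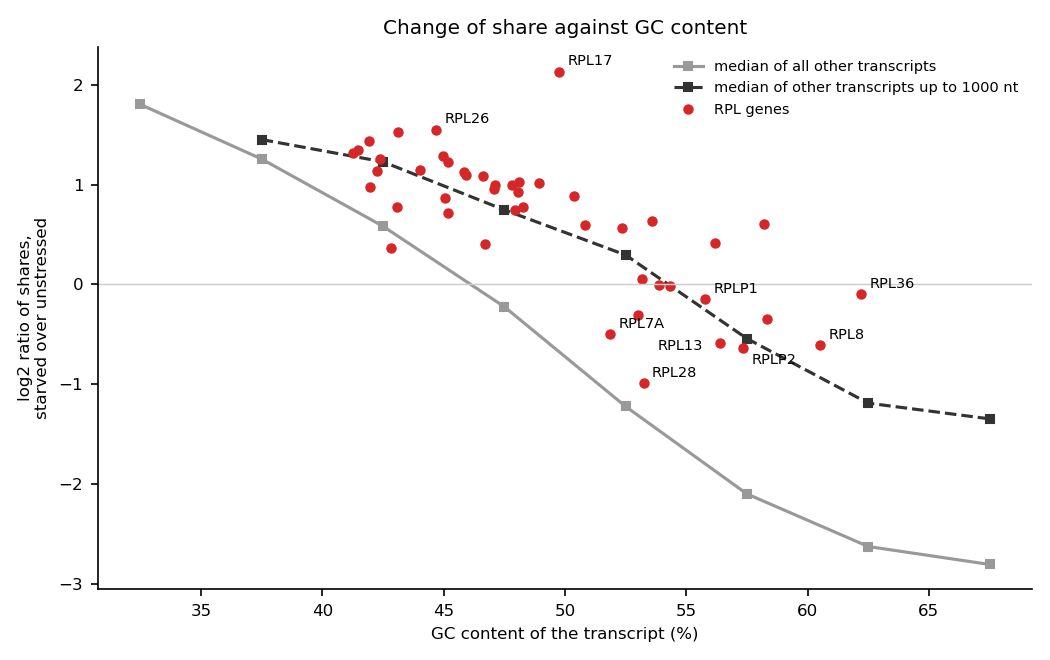
The log2 ratio of shares of RT stops, starved over unstressed, against the GC content of the transcript for the 46 RPL genes (red), with the median of all other transcripts (grey) and of those up to 1000 nt (black, dashed) in GC classes 5 points wide with at least 20 transcripts. The lines descend with GC content, and the RPL genes lie nearer to the line of short transcripts.

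The share of RPL stops was also higher in unstressed cells than in vitro. The median log2 ratio of unstressed cells to the in vitro K+ library was 0.39 over RPL genes and -0.10 over all transcripts. In this comparison 9 of 46 were at least 1.5-fold higher, against 20.1% of 7350 transcripts, and 0 were lower, against 30.3%. Among transcripts of up to 1000 nt, the median was 0.41 over 34 RPL genes and 0.52 over 553 others. There, 6 RPL genes and 251 others were at least 1.5-fold higher, and 0 and 31 were lower. Over 33 RPS genes the median was 0.51, so the higher share was not particular to RPL genes. Among the RPL genes, the ratios were as follows. RPLP1 (2.04), RPLP2 (2.03) and RPL13A (1.85) had the largest ratios and RPL17 (0.846) the smallest. The pairs made from RNA outside the cell were close to each other. The median log2 ratio of RPL genes was 0.00 between the libraries without DMS, labelled Na+ over K+, with a range of -0.14 to 0.07. It was 0.08 in vitro for K+ over Li+, with a range of -0.03 to 0.17.

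DMS halted RT mostly at A and C of RPL mRNAs, and less so in starved than in unstressed cells. The median share of the stops of a gene at A or C was 54.7% in both libraries without DMS, 79.3% in vitro in K+ and 79.6% in Li+. Among the in-cell libraries it was 85.0% for unstressed and 75.0% for starved cells. On all 46 genes the share was higher in unstressed cells than in vitro in K+, and lower in starved cells than in vitro in K+, against 84.1% and 89.2% of all transcripts. The difference between starved and unstressed cells lay between -3.71 and -14.3 percentage points with a median of -10.1. It was at least 5 points lower on 45 of 46 genes, against 79.7% of 7351 transcripts. The share in unstressed cells was 83.5% over RPS genes, 86.0% over other TOP mRNAs and 92.8% over MRPL genes, and in starved cells 73.1%, 75.1% and 80.2%. Stops at G and U of weakly covered transcripts fall under the listing minimum, so this share is not comparable between transcripts of unequal depth.

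RPL39 had the largest difference, with 43.1% and 42.3% of its stops at A or C without DMS, 69.1% and 69.3% in vitro, 78.7% in unstressed and 64.5% in starved cells. RPL13A (84.4% to 71.1%) and RPLP0 (80.2% to 67.3%) came next. RPL21 had the smallest, with 90.6% in unstressed and 86.9% in starved cells, followed by RPL17 (91.2% to 85.4%) and RPL30 (86.6% to 79.5%). For RPL21 the starved library still lay far above the libraries without DMS, at 71.2% and 71.0%.

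The difference was larger at C than at A. The median share of stops at C was 23.3% in unstressed and 15.5% in starved cells, and it was lower on all 46 genes and at least 5 points lower on 42, against 91.6% and 71.8% of all transcripts. The median share at A was 62.1% and 59.0%, and it was lower on 37 genes, against 56.2%. At G the shares were 11.6% and 18.96%, higher on all 46 genes and at least 5 points higher on 44, against 94.1% and 73.6%. At U they were 3.25% and 5.54%. Per nucleotide and relative to U of the same transcript, stops at A were 12.6 times as frequent in unstressed and 7.58 times in starved cells (medians over genes), and stops at C 5.94 and 2.48 times. Stops at G were 2.88 and 2.94 times as frequent, so G and U kept nearly the same proportion to each other. Without DMS, A, C and G were at 1.36, 0.901 and 1.20 times U in the library labelled K+. Less modification and a larger background of other stops would both lower the share at A or C and cannot be told apart here.

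**Figure D3:**
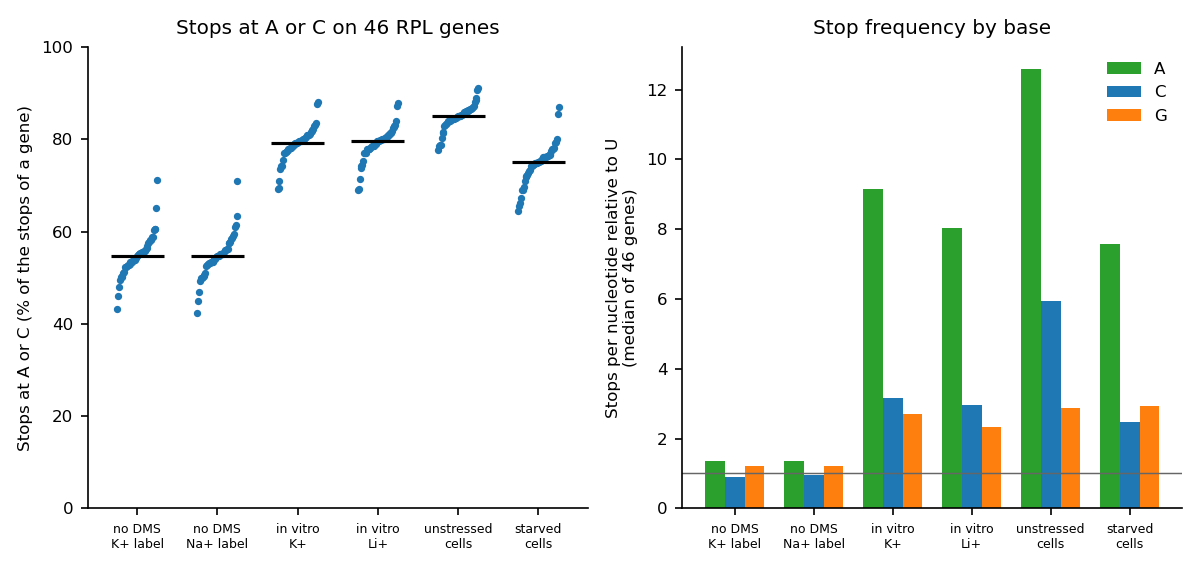
Left, percent of the RT stops of each RPL gene that fell at A or C in the 6 libraries, with a point for each of 46 genes and a line at the median, which was 85.0% in unstressed and 75.0% in starved cells. Right, stops per nucleotide at A, C and G relative to U of the same transcript (median of 46 genes), where A and C were lower in starved than in unstressed cells and G was nearly equal.

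Within a transcript, the pattern of stops at A and C was alike between libraries and closer to the RNA without DMS in starved cells. On the 35 well listed genes, Pearson's r of the log2 ratio to the mean of the same base across A and C positions had a median of 0.83 between unstressed and starved cells (0.74 to 0.93). It was 0.81 between unstressed cells and in vitro K+, and 0.85 between starved cells and in vitro K+. With the library labelled K+ without DMS, r was 0.64 for unstressed and 0.81 for starved cells, and it was higher for starved cells on 35 of 35 genes, against 84.5% of 3256 transcripts listed as well. With in vitro K+ it was higher for starved cells on 30 of 35, against 44.8%. The in vitro pair had 0.94 and the pair without DMS 0.95. These positions share a transcript and a base composition, and the values are descriptions. The unstressed library held 1064237 RPL stops on 24528 listed nucleotides, against 3025576 on 27775 in the starved one. Counting noise from fewer stops lowers r, and how much of these differences in r comes from depth was not tested.

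Of 7117 A or C positions with at least 100 stops over both in-cell libraries, 839 were at least 2-fold above the median of their gene in starved against unstressed cells and 407 at least 2-fold below. At A, 15.0% were above and 2.03% below, against 11.0% and 4.03% of the A positions of all transcripts. At C, 3.64% were above and 15.1% below, against 3.36% and 16.6%. The positions named here were chosen for the size of their difference, 3 in each direction, and their values are a description.

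The largest differences upward lay in the coding sequence of RPL12, in a stretch rich in A (positions counted from 1 at the first nucleotide of the transcript, GRCh37 minus strand, exon 4 of 7). The 29 nt around A389 are shown with that nucleotide in capitals, at chr9:130211564-130211592.
RPL12 A389: aaccaccaagagacAgaaagaaacagaaa
A389 had 111 and 103 stops without DMS, 29 and 32 in vitro, 4 in unstressed and 149 in starved cells. A387, in the same stretch, had 31 and 42, 35 and 33, 9 and 150. As a share of the stops of RPL12, A389 was 13.6 times higher in starved cells (5.20 to 50.5) and A387 6.08 times (3.12 to 13.6). Over the 16 A or C nucleotides from 380 to 400, the mean ratio to the same base was 0.419 in unstressed cells, 0.948 in vitro in K+, 1.53 in starved cells, and 1.99 and 1.92 without DMS. Over the 56 A or C nucleotides on either side it was 1.00 in unstressed and 1.36 in starved cells. The unstressed library was thus the lowest of the 6 within this stretch.

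**Figure D4:**
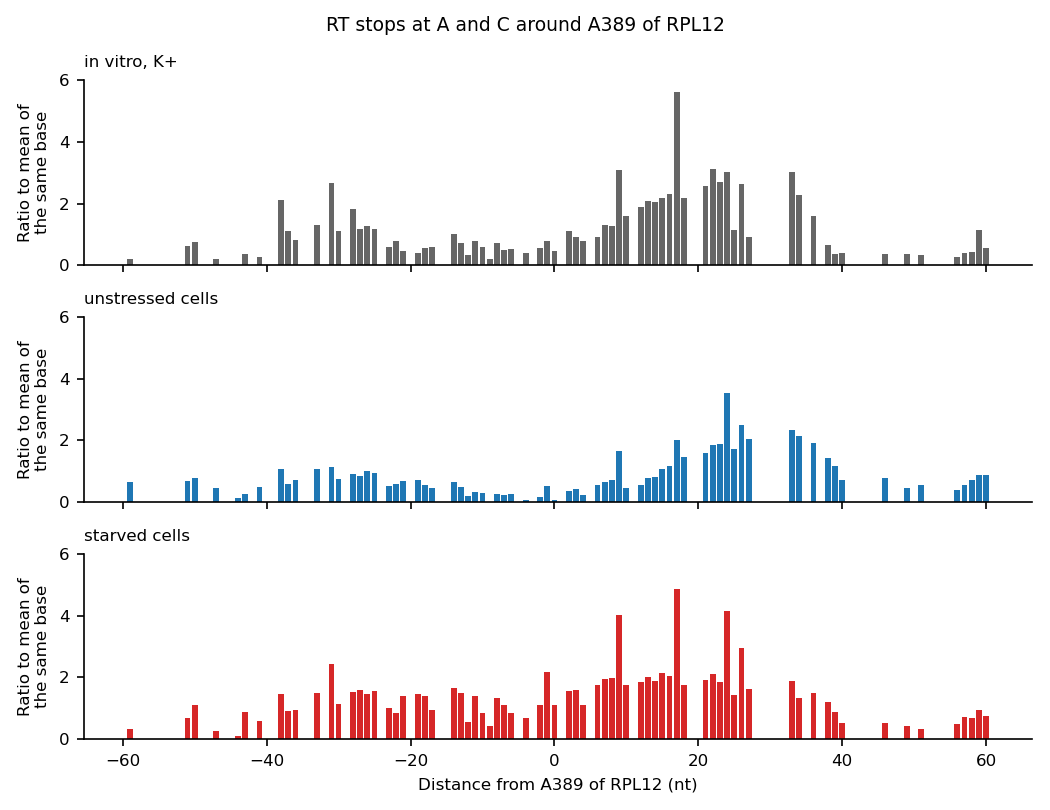
RT stops at A and C of RPL12 as a ratio to the mean of the same base of the transcript, by distance from A389, in vitro in K+, in unstressed and in starved cells. From 9 nt before to 11 nt after A389 the bars average 0.419 in unstressed and 1.53 in starved cells.

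The third position upward was C524 in the 3′ UTR of RPL41, with 232 and 243 stops without DMS, 40 and 47 in vitro, 9 in unstressed and 212 in starved cells. Downward, C823 and C991 of RPLP0 and C500 of RPL14, all in coding sequence, stood out. C823 of RPLP0 had 7 and 7 stops without DMS, 108 and 135 in vitro, 120 in unstressed and 22 in starved cells, a ratio of shares of 0.123 (0.0741 to 0.194). C991 had 4 and 5, 27 and 20, 105 and 21. C500 of RPL14 had 37 and 29, 74 and 82, 134 and 94. At C823, DMS gave many stops in vitro and in unstressed cells and few in starved cells. The windows around these C are shown with the C in capitals, C823 across the junction of exon 6 and the next exon of RPLP0 (minus strand, chr12:120635257-120636376) and C500 in exon 6 of 6 of RPL14 (plus strand, chr3:40503492-40503520).
RPLP0 C823: tgcattctcgcttcCtggagggtgtccgc
RPL14 C500: tcccaaaaaagcacCtggtactaagggta

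The TOP tract is the element that defines these mRNAs in translation. In the RefSeq promoter table (GRCh38.p14), 39 of the 46 genes had an entry, and 25 of them (64.1%) started with a C followed by at least 4 C or T, against 3.96% of 27266 other genes. For 6 of the 25, the start could be placed on the transcript of the files by its listed bases. Their first 20 bases are shown with the pyrimidine tract in capitals, because stops were read in them.
RPL39: CCCTCCTCTTCCTTTCTCCg
RPLP2: CCTTTTCCTCCCTgtcgcca
RPLP1: CCCCTTTCCTCagctgccgc
RPL38: CTTTTTCgtccttttccccg
RPL12: CCTCTCggctttcggctcgg
RPL41: CTCTCggccttagcgccatt
These lie at chrX:119791611-119791630 (minus strand), chr11:809967-809986, chr15:69452818-69452837, chr17:74203678-74203697, chr9:127451387-127451406 (minus strand) and chr12:56116633-56116652, the others on the plus strand.

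Few stops fell in the tracts. The tract of RPL39, the longest of the 6, had 183 and 168 stops without DMS, 271 and 264 in vitro, 386 in unstressed and 740 in starved cells. That of RPLP1 had 102 and 76, 53 and 65, 101 and 148, and that of RPL38 had 54 and 69, 27 and 26, 41 and 78. RPLP2 had 57 and 57, 35 and 37, 46 and 30. RPL12 and RPL41 had between 0 and 13. Together the tracts held 0.236% (0.217 to 0.256%) of the stops of these 6 genes in unstressed and 0.182% (0.171 to 0.194%) in starved cells, against 0.116% and 0.114% without DMS and 0.173% and 0.126% in vitro. The 20 nt after the tract held 4.03% in unstressed, 2.79% in starved cells, 3.49% in vitro in K+ and 2.86% without DMS in the library labelled K+. Over the 6 genes together, both windows held a larger share in unstressed than in starved cells. RPL39 gave 386 of the 574 tract stops in unstressed and 740 of the 996 in starved cells, and in the 20 nt after its tract the order was the opposite, with 11.4% of its stops in unstressed and 14.9% in starved cells. In RPL39, RPL38, RPL12, RPLP2 and RPL41 the tract began beyond the first 10 nt of the transcript in the files, so the next measure does not read it.

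The first 10 nt of the RefSeq transcripts held 0.0226% and 0.0205% of the RPL stops without DMS, 0.0156% and 0.0159% in vitro, 0.0343% (0.0310 to 0.0380%) in unstressed and 0.0195% (0.0180 to 0.0212%) in starved cells. RPLP1 alone gave 273 of the 365 stops in unstressed and 335 of the 591 in starved cells. Without RPLP1 the shares were 0.00971% (0.00792 to 0.0119%) and 0.00904% (0.00800 to 0.0102%), with intervals that overlap. In the first 5 nt the order was the opposite, with 0.00094% in unstressed (10 stops) and 0.00284% in starved cells (86 stops). In the first 10 nt, RPLP1 had the largest share of its own stops, 0.235% in unstressed and 0.173% in starved cells. Next came RPL15 (0.163% and 0.143%) and RPL28 (0.150% and 0.0950%). RPL36AL (0.0697%) and RPL29 (0.0458%) followed in unstressed cells, and RPL39 (0.0934%) and RPL29 (0.0506%) in starved cells. In at least 26 of the 46 genes no stop was listed in the first 10 nt of any given library.

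Over the 43 genes with a complete coding annotation, the 5′ UTR held 8.11% of stops in unstressed and 5.84% in starved cells, against 7.21% in vitro in K+ and 6.76% without DMS in the library labelled K+. Without RPLP1 these were 5.82%, 4.75%, 5.60% and 5.51%. The share was lower in starved than unstressed cells on 26 genes, higher on 15 and equal on 2, that is lower on 60.5% of the 43. The 2 equal genes, RPL13A and RPL36A, had no stop listed in the 5′ UTR. Among 3096 transcripts with a stop in the 5′ UTR, a set that leaves out such genes, the share was lower on 57.4%. The median over genes was 4.34% and 4.24%. RPL38 (28.7% to 17.9%), RPL12 (20.8% to 12.5%) and RPL17 (15.2% to 3.86%) were lower in starved cells and RPL39 was higher (20.1% to 22.8%). These 4 were picked after their values were seen. The coding sequence held 80.0% and 80.2%, and the 3′ UTR 11.9% and 13.9%.

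Strong RT stops were nucleotides with an RT-stop enrichment score (E), the stop count over the mean of the transcript, of at least 10. Without DMS, RPL mRNAs had 517 strong stops in the library labelled K+ and 513 in that labelled Na+, of which 132 and 141 were at G. In vitro 30 of 654 and 22 of 650 were at G, in unstressed cells 13 of 694 (1.87%, 1.10 to 3.18%) and in starved cells 69 of 624 (11.1%, 8.83 to 13.8%). With the deposited ratio to the same base in place of E, the counts at G were 101 in unstressed and 112 in starved cells, so the difference rested on the mean taken over all bases. The number at C with E was 108 in unstressed and 40 in starved cells. At G, the share on RPL mRNAs was 25.5% and 27.5% without DMS, while on all other transcripts it was 25.4% in the library labelled K+ and 57.7% in that labelled Na+. On all other transcripts the share at G was 3.26% and 1.90% in vitro, 1.15% in unstressed and 3.55% in starved cells. Most of these G lay on weakly listed transcripts, whose mean is low because many of their nucleotides hold no listed stop. RPL27A had 49 and 52 and RPL13 had 41 and 41 of those without DMS, and RPL27A had 37 of the 69 in starved cells. On the 35 well listed genes, 4 and 8 strong stops were at G without DMS and 0 in any DMS library.

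The strong G stops found without DMS had a higher E in the starved library than in the unstressed one. Over 156 sites on 13 RPL genes, the median log2 ratio (1 stop added) was 0.89, and 150 (96.2%) were above 0. Over 1636 sites of all other transcripts it was 1.18, and 87.3% were above 0. Of the RPL sites 64 (41.0%) were at least 2-fold stronger in starved cells, against 54.6% of 1792 sites. With E taken over the mean of G and U only, which leaves out the stops at A and C, the median over the RPL sites was 0.17. On the 35 well listed genes there were 8 sites with a median of 0.98.

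Few RPL mRNAs had the motif of a G-quadruplex, 4 runs of at least 3 G with 1 to 7 nt between them on the strand of the transcript. It was found in 2 of 46 RPL transcripts (4.35%), RPL13 and RPL36, in 21.4% of 6905 others and in 5.42% of 553 others of up to 1000 nt. With runs of at least 2 G and 1 to 9 nt between them it was found in 41 RPL transcripts (89.1%), in 97.8% of the others and in 85.9% of the other short transcripts. A motif is a description of the letters and not of a fold.

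G stops that differed between the libraries without DMS were rare on RPL mRNAs. By the labels, 1 strong G stop on 1 gene (2.17% of 46 genes) had an E in K+ at least 2 times that in Na+, against 4.81% of 3847 transcripts. With the opposite assignment there were 4 on 4 genes (8.70%), against 37.5%. The 30 nt that end at each stop are shown with runs of at least 2 G in capitals, since a G-quadruplex would lie in these letters, first the site by the labels, then the 4 of the opposite assignment (GRCh37).
RPL13 G833: ccgtgccaacgcccGGctcttcGGcatacg
RPL22 G712: GGGaGGcagatgcGGGtgtGGaGGtgtGGG
RPL13 G972: tttcgtGGGaacaactGGGcctGGGatGGG
RPL27A G826: gtgtcctGGtGGcttgaagccacatGGaGG
RPL36 G434: GGGacgcacatccgcgccaagaGGaagcGG
RPL13 G833 is in the coding part of exon 5 of 5 (chr16:89629369-89629398, plus strand). RPL22 G712 is in the 3′ UTR, exon 4 of 4 (chr1:6246453-6246482, minus strand). RPL13 G972 is in the 3′ UTR (chr16:89629508-89629537), RPL27A G826 in the 3′ UTR (chr11:8707337-8707366, plus strand), and RPL36 G434 in the coding part of exon 3 of 3 (chr19:5691546-5691575, plus strand). The motif with runs of at least 3 G was present in the 45 nt up to the stop for RPL13 G972, and that with runs of at least 2 G for RPL22 G712 and RPL13 G972.

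RPL22 G712 was the strongest of them. It had 15 stops in the library labelled K+ and 658 in that labelled Na+, 36 and 16 in vitro in K+ and Li+, 8 in unstressed and 49 in starved cells. Its E was 1.22 and 55.3 without DMS, a ratio of 45.3 (27.3 to 81.5) for Na+ over K+ by the labels. In vitro E was 4.71 in K+ and 1.52 in Li+, a ratio of 3.10 (1.67 to 5.98), and this was the only one of the 5 sites with an in vitro ratio of at least 2 for K+ over Li+. In cells E was 1.42 unstressed and 2.48 starved, a ratio of 1.75 (0.823 to 4.28) whose interval included 1. The folding score, which sets E in Li+ to 0 and E in K+ to 1, was -0.03 in unstressed and 0.30 in starved cells, and it rested on 8 and 49 stops.

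The other sites were weaker. RPL36 G434 had 27 and 406 stops without DMS (E of 0.844 and 12.7), 9 and 18 in vitro, 9 in unstressed and 36 in starved cells. RPL27A G826 had 10 and 128 (E of 0.976 and 13.0), 12 and 20, 6 and 36. RPL13 G972 had 16 and 122 (E of 2.46 and 19.3), 13 and 11, 13 and 9. RPL13 G833, the site by the labels, had 76 and 35 (E of 11.7 and 5.52), 11 and 21, 4 and 25. Starved over unstressed, E differed by 2.33 times at RPL36 (1.10 to 5.50), 2.49 at RPL27A (1.04 to 7.23), 0.570 at RPL13 G972 (0.215 to 1.44) and 5.14 at RPL13 G833 (1.78 to 20.3). RPL13 and RPL27A are among the weakly listed transcripts. The length of RPL13 implied by the deposited ratios was 4585 nt, while its last listed nucleotide was 2451. With the mean taken up to that nucleotide, E at G833 was 6.25 in the library labelled K+, under the limit, and no site by the labels remained, while E at G972 was 10.3 in the library labelled Na+.

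With a limit of E of at least 5, the opposite assignment gave 4 further G stops, G227 (E of 9.91) and G711 (8.65) of RPL22, G435 of RPL36 (7.56) and G973 of RPL13 (7.42), of which all but G227 lie next to a site above. G227 of RPL22, and G315 of RPL11, whose E of 4.09 did not reach that limit, are described after their values were seen. G227 in the coding sequence of RPL22 had 14 and 118 stops without DMS (E of 1.14 and 9.91), 4 and 8 in vitro, and 3 and 29 in cells. G315 in the coding sequence of RPL11 had 39 and 263 (E of 0.562 and 4.09), 19 and 19, and 7 and 112. In the 45 nt up to them the motif with runs of at least 2 G was present at both and that with runs of at least 3 G at neither.
RPL22 G227: gaaaagctGGGaaccttGGtGGaGGGGtGG
RPL11 G315: gaaatcttGGagaaGGGtctaaaGGtgcGG
They lie at chr1:6253051-6253080 (minus strand, exon 3 of 4) and at chr1:24020380-24021155 (plus strand, ending in exon 4 of 6 and spanning an intron).

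**Figure D5:**
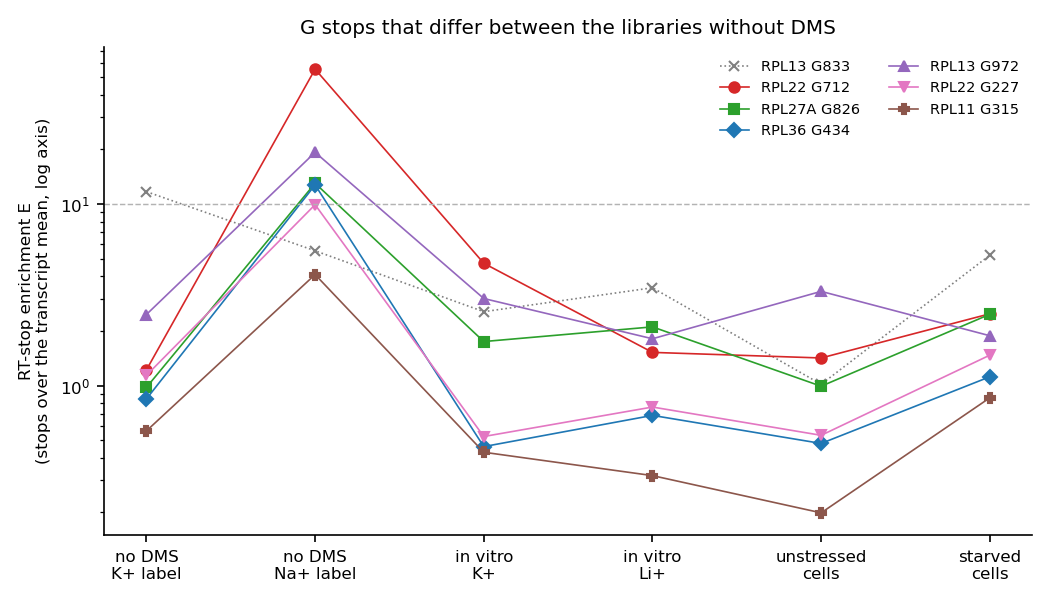
RT-stop enrichment E (log axis) in the 6 libraries at 7 G stops of RPL22, RPL13, RPL27A, RPL36 and RPL11, with the dashed line at E of 10 and the site by the labels dotted. At 6 of the 7 sites the library labelled Na+ had the higher E of the pair without DMS, from 4.09 at RPL11 to 55.3 at RPL22, and it was under 6 in each DMS library.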

How the data were processed

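RT-stop profiles of U2OS poly(A) RNA were analysed for 46 RPL genes. The members and lists were chosen with earlier results of these data known. Per the study's methods, duplicates, barcodes and adapters were removed and reads were placed by Bowtie on an hg19 transcriptome at unique positions with no mismatch. The authors deposited an RT stop count for every nucleotide that reached 3 stops. A deposited ratio stands beside it, which in the files is the count over the mean of the same base of the transcript. Transcript means for E were rebuilt from both. Nucleotides not listed were taken as 0.

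A share of stops is the stops of a transcript over the listed total of the library. Wilson (95%) and exact conditional binomial intervals cover counting error only. Listed totals ranged from 12999691 to 35371061. GENCODE release 44 (GRCh37) gave sequence and exons, matched through the listed bases for 46 of 46 members and for 10340 of 11031 transcripts with at least 15 listed bases. For RPL10, RPL13, RPL28 and RPL34 the last listed nucleotide lay beyond the matched sequence, so their GC content and length class rest on part of the transcript. Coding annotation of RPL10, RPL15 and RPL34 was incomplete and not used. The means of E needed at least 1 stop per nucleotide.

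Named genes were the 5 largest and 5 smallest ratios of shares, the 3 largest and 3 smallest differences at A or C, the 5 largest shares in the first 10 nt in each in-cell library, cation-dependent G stops, those with the most and fewest stops, and 15 genes by role. Others are marked. On simulated data, 200 of 200 planted 3-fold differences among 7355 transcripts were called, as were 41 of 7155 others. The software was scipy 1.17.1, pandas 2.3.3, numpy 2.4.6 and matplotlib 3.10.9 under Python 3.11.15. Samples were grouped by their labels, with 1 library per condition and no test between conditions. Alternatives (45 planned, 10 added after seeing the data) changed the listing minimum, totals, fold limits, E limits, terminal length and the assignment of the libraries without DMS.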

Additional observations from a re-analysis of the deposited data

How the results depend on the processing

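With 1 library per condition, no value shows the spread between cultures. No paired analysis was possible because each condition had 1 library. The ratio of the summed share, 1.54, was 1.65 with totals rebuilt from base means, 1.29 with stops at G and U only, 1.91 with the listing minimum scaled to depth, 1.59 without the 10 largest transcripts in the total, 1.61 over positions listed in both libraries and 1.52 on the genes at least 60% listed. The number of genes higher was 16 with a limit of 2-fold and 11 relative to transcripts of the same GC content and length, which also gave a median log2 ratio of 0.33, and the median was 1.13 with the scaled minimum. The number lower, 4, was 1 with rebuilt totals, with the scaled minimum and with positions listed in both, 2 without the 10 largest transcripts, 0 with a limit of 2-fold, 2 relative to GC content and length and 2 on the well listed genes.

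In the order K+ and Na+ without DMS, in vitro K+ and Li+, unstressed and starved, the median share at A or C with each listed nucleotide counted once was 52.2%, 51.9%, 54.8%, 54.1%, 58.0% and 53.7%. Without strong stops it was 77.5%, 77.7%, 83.5% and 73.7% in the DMS libraries. In the same order, the share of stops in the first 5 nt was 0.00665%, 0.00679%, 0.00287%, 0.00285%, 0.00094% and 0.00284%, so that here starved cells exceeded unstressed cells, the opposite of the first 10 nt. The share was in the first 20 nt 0.158%, 0.141%, 0.193%, 0.184%, 0.292% and 0.159%, and in the first 50 nt 2.84%, 2.88%, 3.17%, 3.17%, 3.27% and 2.45%. The median over genes for the first 10 nt was 0 in each library. With the scaled minimum the summed share in the first 10 nt was 0.0107%, 0.00845%, 0.0122%, 0.0098% and 0.0154%, unstressed cells being the reference.

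In that order, strong stops at G numbered 469, 482, 166, 145, 100 and 260 with E of at least 5, and 23, 19, 2, 0, 0 and 3 with at least 20. By the deposited ratio they numbered 93, 99, 101 and 112 in the DMS libraries. With a mean of at least 5 they numbered 18 in vitro in K+ and 8 in unstressed cells. Over the mean of listed nucleotides they numbered 1, 3, 0, 0, 0 and 0, so this count depended on the nucleotides not listed. Cation-dependent G stops, 1 by the labels and 4 in the opposite assignment, were 2 and 6 at 1.5-fold, 0 and 4 at 3-fold, 1 and 8 with E of at least 5, 0 and 2 over listed nucleotides, and 0 and 5 over the mean up to the last listed nucleotide. The median log2 ratio at strong G stops was 0.80 with 3 stops added and 0.17 over the mean of G and U. The scaling to GC content and length, the well listed genes and the means of or up to the last of the listed nucleotides were added after seeing the data. Apart from these constructions, the causes of the shifts were not tested.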

Other observations

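Paralogs of RPL genes outside the list had log2 ratios of unequal size between starved and unstressed cells. RPL22L1, a paralog of RPL22, had 2529 stops in the unstressed library and 13970 in the starved one, a log2 ratio of shares of 1.58, where RPL22 had 0.98. The log2 ratio was 1.29 for RPL7L1, 1.18 for RPL26L1, 0.38 for RPL39L and -0.04 for RPL10L. RPL3L, known from muscle, had 3 stops in the library labelled Na+ and none listed in the 5 others.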
